A study of Mus musculus with 9 samples.

Results

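The genes described here write, erase or read histone acetylation: acetyltransferases, the p160 nuclear receptor coactivators, zinc-dependent deacetylases, sirtuins, the corepressor Ncor1 and the BET readers Brd2 and Brd3. Members were taken by symbol from a list that was chosen with earlier results of these data known. All 34 listed symbols had a row among the 54393 genes of the count table. RNA from whole liver was sequenced in mice of the strain labelled C56Bl/6j, all on the purified diet AIN-76a. The control group (5 libraries) received no antibiotics, and the antibiotics group (4 libraries, replicates 1, 2, 3 and 5) had its gut microbiota depleted with non-absorbable antibiotics. The labels used here give no antibiotic names, doses, duration, age or sex. The comparison addresses how liver RNA differs when gut bacteria are depleted.

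Acetyltransferases transfer the acetyl group of acetyl-CoA to lysines of histone tails, which loosens chromatin and makes docking sites for bromodomain proteins. Zinc-dependent deacetylases and the NAD-dependent sirtuins remove the mark. Several of the deacetylases work only inside corepressor complexes, and in liver the Ncor1 complex with Hdac3 is known for restraining lipid synthesis genes. Butyrate, a short-chain fatty acid made by gut bacteria, is known to inhibit some, but not all, zinc-dependent deacetylases. RNA levels measure neither enzyme activity nor histone acetylation.

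Library totals ran from 28156248 to 49628737 estimated counts in controls and from 15422891 to 59179622 with antibiotics, where libraries 1, 2 and 3 were shallower than every control and library 5 was the deepest of all. The liver label was checked against 6 hepatocyte markers, which summed to between 75500 and 91300 CPM (counts scaled to a common library size with TMM factors) in every library. Of the 11 cell types examined, no tested marker passed between the groups. Not all markers were tested: 1 of 4 for neutrophils, 1 of 5 for pancreas, 2 of 4 for adipose tissue, 4 of 5 for T and NK cells and 3 of 4 for B cells. Control library 2 stood apart in its 6 macrophage markers, at 325 CPM against 110 to 162 in the other controls and 115 to 143 with antibiotics. In whole-liver RNA, fewer cells of a type and less RNA per cell cannot be told apart.

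Most of these genes start in promoters rich in GC and CpG. RefSeq (GRCm38.p6) gave windows of 300 bases, 250 before to 50 after a start, for 28 members. At least 1 window had a GC content of 50% or more with an observed-to-expected CpG ratio of 0.6 or more in 23 of the 28 (82.1%), against 68.1% of the 10647 genes tested here that had a window and 36.2% of all 27025 genes. The 2 promoters printed belong to Brd2, the 1 member that passed the test below, and to Sirt7, one of the 2 with the next smallest p. Capitals mark matches, on either strand, to GGGCGG (the GC box), CCGGAAG (an ETS core), the NRF1 palindrome (the second capitalised run of Brd2), CACGTG (E-box), TGACGTCA (CRE), CCAAT or TATAAA. Brd2 (the outermost of its 3 windows) is shown at chr17:34122558-34122857 and Sirt7 at chr11:120624965-120625264, both from the minus strand and written 5′ to 3′.
Brd2: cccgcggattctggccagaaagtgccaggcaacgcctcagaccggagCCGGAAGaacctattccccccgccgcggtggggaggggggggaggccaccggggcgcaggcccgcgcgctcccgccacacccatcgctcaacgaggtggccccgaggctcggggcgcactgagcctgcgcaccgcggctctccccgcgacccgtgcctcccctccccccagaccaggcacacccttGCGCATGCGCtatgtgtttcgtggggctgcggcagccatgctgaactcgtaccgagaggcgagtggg
Sirt7: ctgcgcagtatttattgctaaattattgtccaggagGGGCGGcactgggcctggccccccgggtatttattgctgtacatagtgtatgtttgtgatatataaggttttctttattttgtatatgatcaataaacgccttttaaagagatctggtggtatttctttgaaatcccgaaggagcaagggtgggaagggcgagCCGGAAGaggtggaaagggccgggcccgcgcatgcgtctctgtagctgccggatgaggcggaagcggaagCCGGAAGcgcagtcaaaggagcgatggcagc
The Brd2 window held CCGGAAG from base 48 and the NRF1 motif from base 234, the latter beginning 17 bases before the start. The Sirt7 window held GGGCGG from base 37 and CCGGAAG from bases 200 and 270. CCGGAAG was present in 9 of the 28 members (32.1%) against 19.1% of tested genes, and GGGCGG in 22 (78.6%) against 64.7%. The NRF1 motif was found in 2 members, Brd2 and Sirt6 (7.14% against 2.22%), CACGTG in 4 (14.3% against 11.5%), CCAAT in 13 (46.4% against 42.9%), TATAAA in 2, Hdac8 and Hdac9 (7.14% against 9.90%), and TGACGTCA in 0 (against 3.34%). These matches describe letters in a window, and genes with several windows have more letters to match. The GC box and the other motifs could overlap, and each match was counted on its own.

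Transcript levels per length spanned a wide range. Levels are given as CPM per kilobase of exon in control liver (mean ± SD, n = 5), since counts of different genes can be compared only per length. Kat2b, the acetyltransferase also called PCAF, was highest at 20.6 ± 1.74 CPM per kb, above Hdac11, the only class IV deacetylase, at 12.1 ± 1.12 CPM per kb. The mitochondrial deacetylase Sirt3 (10.6 ± 0.323), Brd2 (10.5 ± 0.269), the mainly cytosolic Sirt2 (8.69 ± 0.790), Hdac3 (7.64 ± 0.134) and Ncor1 (7.34 ± 0.694) came next. At the low end were Sirt6, a nuclear sirtuin (0.724 ± 0.107), Hdac4 (0.447 ± 0.0674) and Hdac9 (0.0399 ± 0.0198), both class IIa deacetylases.

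The order was mostly a gradual one. Of the 33 pairs of neighbours in that order, 6 had control libraries that did not overlap: Kat2b above Hdac11, Brd2 above Sirt2, Hdac10 above Ncoa1, Crebbp above Kat6b, Sirt6 above Hdac4, and Hdac4 above Hdac9. The other 27 pairs overlapped. A control mean of at least 1 CPM per kb was reached by 28 members, and by 32 when the longest transcript was taken as the length, which also moved Sirt2 from place 5 to place 2 and Hdac11 from place 2 to place 5 in controls. With that length Kat2b stayed first in controls (21.5 CPM per kb) but was in place 4 with antibiotics (19.0), after Sirt2 (22.2), Sirt3 (21.6) and Hdac11 (19.6). All 34 members passed the filter on low counts, with a median of 18.4 CPM against 9.92 CPM over the 14873 tested genes. The scarcest was Hdac9, with between 2 and 45 counts in a library.

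**Figure D1:**
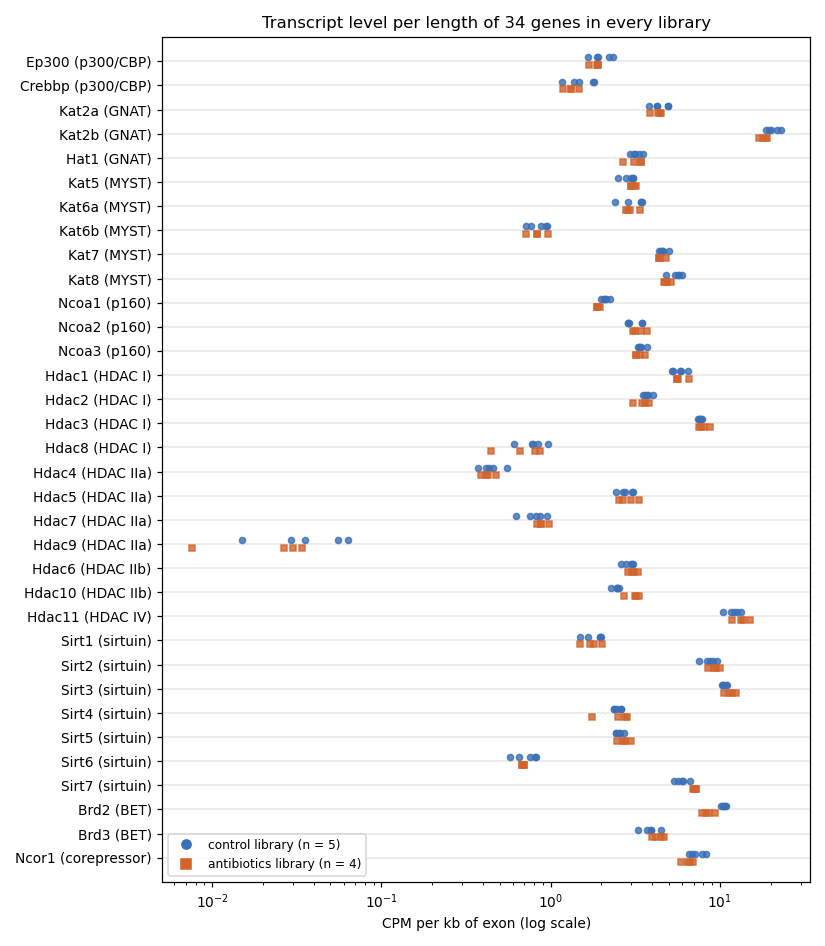
Level of each of the 34 genes in every library, in CPM per kb of exon on a log axis, with control libraries (n = 5) as circles and antibiotics libraries (n = 4) as squares. With this length Kat2b lies highest and Hdac9 lowest in both groups, and for most genes the 2 sets of points overlap.

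With antibiotics, 1 of the 34 members changed: the BET reader gene Brd2 fell. With edgeR (quasi-likelihood F test, p adjusted over all tested genes by Benjamini-Hochberg, called under 0.05), 2.68% of genes were called (398 of 14873), of which 1.05% of all genes were lower (156) and 1.63% higher (242). At an unadjusted p under 0.05, 6 members stood out against 18.5% of all genes, 4 lower (Brd2, Kat2b, Kat8 and Ncoa1) and 2 higher (Hdac10 and Sirt7). The groups did not overlap in 4 members (Brd2 and Ncoa1 lower, Hdac10 and Sirt7 higher), where 8.88% of all genes showed this, 4.29% lower and 4.59% higher. These shares of the members are close to the shares of all genes. DESeq2 called 3 members, Brd2, Hdac10 and Sirt7, where it called 6.68% of all genes, and limma-voom called Brd2, where it called 2.78%. At an edgeR adjusted p under 0.10 the same 3 members as with DESeq2 passed, where 6.30% of all genes did.

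The members' differences were small and their intervals narrow. The median log2 fold change (antibiotics minus control) was -0.03 over the 34 members and -0.01 over all tested genes, with 20 members below 0 and 14 above. The 95% interval of the fold change lay wholly within 1.5-fold in either direction for 32 of 34 members, against 60.8% of all tested genes. Hdac8 and Hdac9 were the exceptions. It lay within 2-fold for 33, all but Hdac9, against 83.9% of all genes. The median biological coefficient of variation, the spread between libraries beyond counting noise, was 10.4% for the members and 14.1% for all genes, whose median level was lower.

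**Figure D2:**
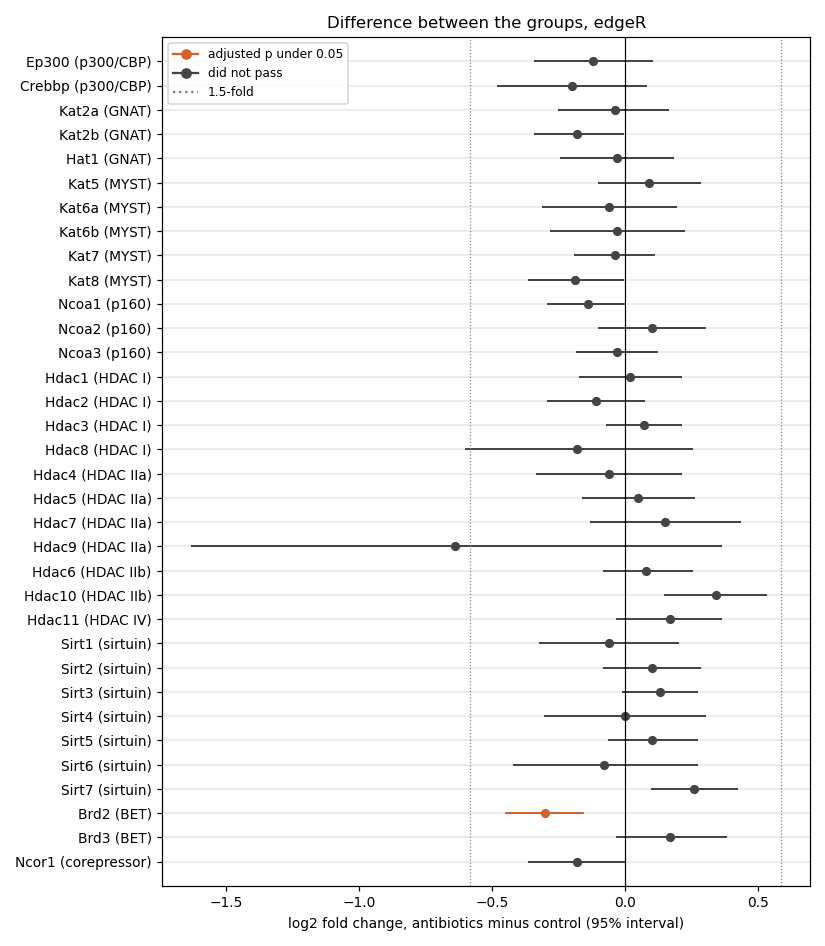
Log2 fold change (antibiotics minus control) of each member with its 95% interval from edgeR, and dotted lines at 1.5-fold. Only Brd2, drawn in orange, passed at an adjusted p under 0.05, and only the intervals of Hdac8 and Hdac9 cross a dotted line.

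BET proteins bind acetylated histones through paired bromodomains and bring the elongation kinase P-TEFb to promoters. Brd2 (ENSMUSG00000024335.20, chromosome 17, 34112023 to 34122634, minus strand, GRCm38) measured 81.6, 81.7, 80.0, 85.6 and 83.4 CPM in control libraries 1 to 5 and 73.5, 67.2, 61.8 and 64.7 CPM in antibiotics libraries 1, 2, 3 and 5. Every antibiotics library lay below every control. The mean fell from 82.4 ± 2.11 CPM (SD, n = 5) to 66.8 ± 4.97 CPM (SD, n = 4), a log2 fold change of -0.30 ± 0.07 (SE, 95% interval -0.45 to -0.16, edgeR adjusted p = 0.0384). When each of the 9 libraries was left out in turn, Brd2 passed in 2 fits, without control library 3 or 5. The adjusted p was 0.0712, 0.0754 and 0.0738 without control libraries 1, 2 and 4, and 0.0574, 0.0826, 0.113 and 0.114 without antibiotics libraries 1, 2, 3 and 5.

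Exons of Brd2 share 360 bases with H2-DMa, an MHC class II chaperone gene on the opposite strand, and whether strand was used in the counting is not given in the sources used here. H2-DMa measured 2.49, 11.4, 2.27, 2.13 and 2.53 CPM in the controls and 2.03, 1.84, 1.38 and 2.22 CPM with antibiotics (adjusted p = 0.269). Its high library was control 2, the one with the most macrophage marker RNA. The part of this overlap in the Brd2 difference was not tested. The mRNAs encoded by mitochondrial DNA, which can shift with RNA quality, summed to 44900 to 65300 CPM in controls and to 64200, 73700, 72400 and 49500 CPM in antibiotics libraries 1, 2, 3 and 5. Antibiotics libraries 1 and 5 lay within the control range and libraries 2 and 3 above it. The part of RNA quality in the differences of Brd2, Hdac10 and Sirt7 was not tested.

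Brd3, the second BET reader, measured 28.8, 24.0, 32.8, 28.7 and 27.3 CPM in controls and 33.1, 29.2, 30.9 and 34.3 CPM with antibiotics. The libraries overlapped, and the difference of 0.17 ± 0.09 (log2, SE, 95% interval -0.03 to 0.38) had an adjusted p of 0.347. Per length, Brd2 exceeded Brd3 in each library. The ratio was 2.65, 3.19, 2.29, 2.79 and 2.87 in controls and 2.08, 2.16, 1.87 and 1.77 with antibiotics. The ratio was thus lower in every antibiotics library than in any control. It was computed after both genes' values were known and was not tested. Together the 2 readers summed to 14.4 ± 0.440 and 12.9 ± 0.765 CPM per kb.

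**Figure D3:**
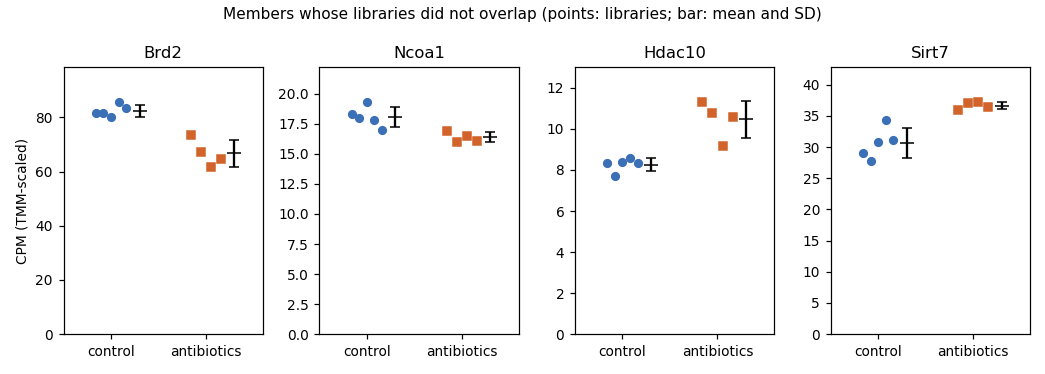
CPM of Brd2, Ncoa1, Hdac10 and Sirt7 in each control library (circles, n = 5) and each antibiotics library (squares, n = 4), with mean and SD as bars on axes that start at 0. In each of these 4 genes the groups do not overlap, Brd2 and Ncoa1 being lower and Hdac10 and Sirt7 higher with antibiotics.

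No zinc-dependent deacetylase passed with edgeR (0 of 11, 1 at an unadjusted p under 0.05, 1 with DESeq2, 0 with limma-voom). Of the class I enzymes, the nuclear deacetylases of the classical corepressor complexes, Hdac1 measured 19.9 ± 1.77 and 20.1 ± 1.72 CPM (log2 fold change 0.02, 95% interval -0.17 to 0.21). Its close relative Hdac2 measured 16.7 ± 0.875 and 15.6 ± 1.46 CPM (-0.11, -0.29 to 0.07). Hdac3, the enzyme of the Ncor1 complex, was the steadiest member among controls, at 30.5, 31.2, 31.6, 31.2 and 30.3 CPM, a coefficient of variation of 1.75%. With antibiotics it measured 32.7, 30.6, 35.4 and 31.6 CPM (0.07, -0.07 to 0.21), so the groups overlapped. The X-linked Hdac8 was low in both groups, at 3.86 ± 0.623 and 3.36 ± 0.908 CPM (-0.18, -0.60 to 0.25).

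Class IIa deacetylases shuttle between cytoplasm and nucleus under the control of kinases and have little catalytic activity of their own. Hdac5 was the most abundant of them, at 24.5 ± 2.31 and 25.3 ± 3.03 CPM (log2 fold change 0.05, 95% interval -0.16 to 0.26). Hdac4 measured 7.06 ± 1.07 and 6.77 ± 0.605 CPM (-0.06, -0.33 to 0.21) and Hdac7 5.43 ± 0.837 and 6.01 ± 0.424 CPM (0.15, -0.13 to 0.43). Hdac9 had the widest spread of all members, at 0.815, 0.936, 0.521, 0.431 and 0.220 CPM in controls and 0.392, 0.111, 0.442 and 0.499 CPM with antibiotics. Its interval ran from -1.63 to 0.36, so at this depth a 2-fold difference could not be told from none.

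The class IIb and IV enzymes were each higher on average with antibiotics, and none passed with edgeR, while DESeq2 called Hdac10. Hdac10, a polyamine deacetylase (ENSMUSG00000062906.12, chromosome 15, 89123307 to 89128700, minus strand, GRCm38), measured 8.32, 7.73, 8.37, 8.57 and 8.33 CPM in controls and 11.3, 10.8, 9.17 and 10.6 CPM with antibiotics. All 4 antibiotics libraries exceeded all 5 controls. The log2 fold change of 0.34 ± 0.09 (SE, 95% interval 0.15 to 0.53) had an adjusted p of 0.0603 with edgeR, 0.0549 with limma-voom and 0.0243 with DESeq2. Hdac6, the cytosolic tubulin deacetylase, measured 16.8 ± 1.12 and 17.8 ± 1.02 CPM (0.08, -0.08 to 0.25). Hdac11, which removes long fatty acyl groups as well, measured 48.9, 51.6, 46.5, 40.1 and 45.0 CPM in controls and 51.4, 45.5, 52.9 and 58.0 CPM with antibiotics. Its groups overlapped, with a log2 fold change of 0.17 (-0.03 to 0.36, adjusted p = 0.360). Hdac11 made up 30.5 ± 2.23% of the summed zinc deacetylase level per length in controls and 32.2 ± 1.96% with antibiotics, and class I 45.5 ± 0.867% and 43.1 ± 2.52%.

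Sirtuins use NAD and differ by compartment, with Sirt1, Sirt6 and Sirt7 in the nucleus, Sirt2 mainly in the cytosol and Sirt3, Sirt4 and Sirt5 in mitochondria. None of the 7 passed with edgeR (1 at an unadjusted p under 0.05, 1 with DESeq2, 0 with limma-voom). Sirt7, a nucleolar deacetylase (ENSMUSG00000025138.14, chromosome 11, 120618372 to 120625240, minus strand, GRCm38), measured 29.1, 27.8, 30.8, 34.3 and 31.2 CPM in controls and 35.9, 37.0, 37.2 and 36.5 CPM with antibiotics. The 4 antibiotics libraries lay close together and above every control. The log2 fold change of 0.26 ± 0.07 (SE, 95% interval 0.10 to 0.42) had an adjusted p of 0.0779 with edgeR, 0.0781 with limma-voom and 0.0363 with DESeq2. Exons of Sirt7 share 124 bases with Mafg on the same strand. The part of this overlap in the Sirt7 difference was not tested.

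The mitochondrial sirtuins held 47.6 ± 1.46% of the summed sirtuin level per length in controls and 47.0 ± 1.43% with antibiotics, most of it Sirt3. That gene measured 66.0, 64.8, 61.9, 62.5 and 61.6 CPM in controls and 74.8, 68.2, 63.5 and 70.6 CPM with antibiotics (log2 fold change 0.13, 95% interval -0.01 to 0.27, adjusted p = 0.317). Its exons overlap those of Psmd13 and Ric8a on the opposite strand. Sirt4 (5.65 to 6.26 CPM in controls, 4.24 to 6.80 with antibiotics) and the desuccinylase Sirt5 (14.8 to 16.6 and 15.1 to 18.1 CPM) had log2 fold change intervals of -0.30 to 0.30 and -0.06 to 0.27. The Sirt5 counts may be uncertain, since its longest transcript shares stretches with transcripts of 11 other genes. Among these are Wdr31 (97.6% identity over 843 nt) and Xpnpep1 (100% over 286 nt), which was at 31.5 CPM in controls. The strand of these matches was not recorded, and whether Sirt5 shares reads with these genes was not tested. Sirt1, the sirtuin best known for metabolic control in liver, measured 9.69 ± 1.17 and 9.36 ± 1.14 CPM (-0.06, -0.32 to 0.20). Sirt2 measured 43.8 ± 3.98 and 46.9 ± 3.15 CPM (0.10, -0.08 to 0.28) and Sirt6 2.02 ± 0.297 and 1.92 ± 0.0318 CPM (-0.08, -0.42 to 0.27).

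Of the 10 acetyltransferases, 9 had a log2 fold change below 0 where 51.4% of all genes did, with a median of -0.05. Several lay near 0: Kat2a -0.04, Hat1 -0.03, Kat6b -0.03 and Kat7 -0.04. Over 17 refits the sign changed in 1 for Kat2a, 2 for Hat1, 4 for Kat6b and 1 for Kat5. None of the 10 passed with edgeR (2 at an unadjusted p under 0.05, 0 with DESeq2, 0 with limma-voom). Kat2b, a GNAT-family coactivator enzyme, measured 106, 90.8, 97.9, 111 and 94.3 CPM in controls and 93.0, 88.1, 90.9 and 82.5 CPM with antibiotics. Control library 2 lay within the antibiotics range and the other 4 controls above it (log2 fold change -0.18, 95% interval -0.34 to -0.01, adjusted p = 0.243). Its relative Kat2a, the SAGA enzyme also called GCN5, was at 15.4 ± 1.72 and 14.9 ± 0.967 CPM (-0.04, -0.25 to 0.16), and Hat1, which acetylates newly made histones, at 9.28 ± 0.627 and 9.11 ± 0.983 CPM (-0.03, -0.24 to 0.18). Ep300 and Crebbp, the large paired coactivators of enhancers, measured 28.5 ± 3.94 and 20.6 ± 3.70 CPM in controls and 26.3 ± 1.54 and 18.0 ± 1.54 CPM with antibiotics. Their intervals were -0.34 to 0.10 and -0.48 to 0.08.

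Among the 5 MYST enzymes, Kat8, which acetylates histone H4, measured 16.3, 17.2, 13.9, 15.8 and 16.5 CPM in controls and 14.8, 13.7, 13.5 and 14.1 CPM with antibiotics. Only control library 3 reached into the antibiotics range (log2 fold change -0.19, 95% interval -0.36 to -0.01, adjusted p = 0.232). Exons of Kat8 overlap Prss8 on the opposite strand. Kat5, the NuA4 enzyme TIP60, was the 1 acetyltransferase above 0, at 10.1 ± 0.863 and 10.8 ± 0.350 CPM (0.09, -0.10 to 0.28), and its exons share 426 bases with Rnaseh2c on the opposite strand. Kat6a (-0.31 to 0.19), Kat6b (-0.28 to 0.22) and Kat7 (-0.19 to 0.11) had intervals on both sides of 0.

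The p160 coactivators bind nuclear receptors and recruit p300 and CBP. Ncoa1 (ENSMUSG00000020647.10, chromosome 12, 4247362 to 4477182, minus strand, GRCm38) measured 18.3, 18.0, 19.3, 17.8 and 17.0 CPM in controls and 16.9, 16, 16.5 and 16.1 CPM with antibiotics. The groups did not overlap, but control library 5 and antibiotics library 1 nearly met (log2 fold change -0.14 ± 0.07, adjusted p = 0.264). Ncoa2 measured 48.9 ± 5.11 and 52.3 ± 4.47 CPM (0.10, 95% interval -0.10 to 0.30) and Ncoa3 27.0 ± 1.33 and 26.5 ± 1.49 CPM (-0.03, -0.18 to 0.12). Ncoa3 shares 154 exon bases with Sulf2 on the opposite strand, a gene that rose from 9.49 ± 1.83 to 18.3 ± 3.02 CPM (adjusted p = 0.0140).

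Ncor1, the scaffold that holds Hdac3 on repressed genes, measured 92.0, 84.4, 101, 106 and 87.6 CPM in controls and 82.9, 75.7, 85.6 and 88.8 CPM with antibiotics. The groups overlapped (log2 fold change -0.18, 95% interval -0.36 to 0.00, adjusted p = 0.284).

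Summed per length, the class levels of the groups lay within a few CPM per kb of each other. The 10 acetyltransferases summed to 48.7 ± 2.22 CPM per kb in controls (46.6 to 51.6) and 45.1 ± 1.12 with antibiotics (43.8 to 46.5). The 11 zinc deacetylases summed to 39.4 ± 1.09 (37.9 to 40.6) and 41.9 ± 1.80 (39.5 to 43.5), and the 7 sirtuins to 32.8 ± 0.576 (31.8 to 33.2) and 35.7 ± 1.37 (34.6 to 37.4). The sirtuin sums did not overlap between the groups with TMM, RLE or upper-quartile scaling, and the acetyltransferase sums did not with TMM or RLE but met with upper-quartile scaling (46.2 to 51.2 and 44.4 to 46.6). These scalings use the same libraries, and how often sums of other gene sets fail to overlap was not computed. A sum is led by its most abundant genes: Kat2b for acetyltransferases, Hdac11 for zinc deacetylases, and Sirt3, Sirt2 and Sirt7 for sirtuins. Per length, Sirt3 went from 10.6 to 11.6 CPM per kb, Sirt2 from 8.69 to 9.31 and Sirt7 from 5.95 to 7.12. Sirt5 was also higher (2.54 and 2.72), and Sirt1, Sirt4 and Sirt6 were not. A sirtuin sum without its leading genes was not computed.

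The ratio of the acetyltransferase sum to the zinc deacetylase sum was 1.24 ± 0.0800 in controls (1.16 to 1.36) and 1.08 ± 0.0608 with antibiotics (1.01 to 1.14). It was 0.715 ± 0.0294 (0.686 to 0.757) and 0.642 ± 0.0320 (0.613 to 0.678) without Kat2b. Without Hdac11 it ran from 1.66 to 1.87 in controls and from 1.53 to 1.65 with antibiotics. With the longest transcript as the length it ran from 1.07 to 1.24 and from 0.931 to 1.06. In these settings the groups did not overlap. Without both Kat2b and Hdac11 it was 1.03 ± 0.0360 and 0.946 ± 0.0332, and the groups met at 0.971. All settings use the same libraries. These sums and ratios were not tested. By median log2 fold change the classes lay between -0.18 and 0.21: p300 and CBP -0.16, GNAT -0.04, MYST -0.04, p160 -0.03, class I -0.05, class IIa -0.01, class IIb 0.21, class IV 0.17, sirtuins 0.10, BET -0.07 and Ncor1 -0.18.

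**Figure D4:**
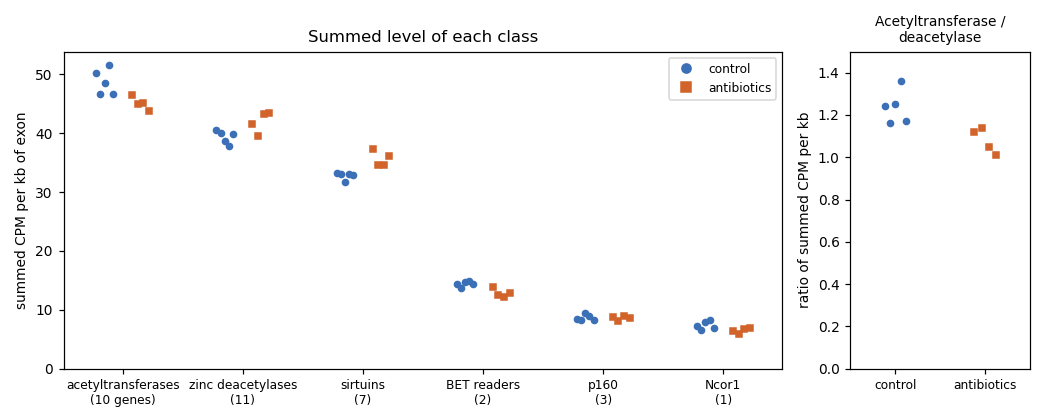
Left, summed CPM per kb of exon for each class in each control library (circles, n = 5) and antibiotics library (squares, n = 4). Right, the ratio of the acetyltransferase sum to the zinc deacetylase sum, which lies between 1.16 and 1.36 in controls and between 1.01 and 1.14 with antibiotics.

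Partners of these enzymes were read in 7 lists, also chosen with earlier results of these data known. With edgeR 0 of 150 tested genes passed, and 25 had an unadjusted p under 0.05 (9 higher, 16 lower). DESeq2 called 11 and limma-voom 1. Over all genes 18.5% had an unadjusted p under 0.05 and DESeq2 called 6.68%, so these counts are near the background. In the deacetylase complex list the median was -0.11, with 27 of 38 tested genes below 0 (51.4% of all genes were). An unadjusted p under 0.05 was reached by 8, which is near the 18.5% of all genes in either direction. All 8 were lower, and the share of all genes lower at that threshold was not computed. Its nearest genes were Rcor1, the CoREST scaffold (21.6 ± 1.24 and 17.6 ± 1.07 CPM, adjusted p = 0.0590), and Mta3, a NuRD subunit (11.1 ± 1.73 and 8.24 ± 0.381 CPM, adjusted p = 0.0779). DESeq2 called 4 of the 38 (6.68% of all genes), Rcor1, Mta3, Mbd2 and Rbbp4, the last 2 named here because of that call. Of 44 acetyltransferase complex subunits (median -0.02), 3 had an unadjusted p under 0.05, and Sgf29, a SAGA subunit, measured 11.8 ± 1.28 and 8.63 ± 0.960 CPM (adjusted p = 0.0590).

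Among 32 other readers (median -0.03, 5 at an unadjusted p under 0.05), the bromodomain ATPase gene Atad2 measured 4.83 ± 0.651 and 3.24 ± 0.487 CPM (edgeR adjusted p = 0.0598, limma-voom 0.0444), and Trim28, the KRAB zinc finger corepressor, 51.8 ± 4.37 and 41.1 ± 4.01 CPM (adjusted p = 0.0682). The 14 tested genes of acetyl-CoA and NAD supply had a median of -0.02. Of them 4 had an unadjusted p under 0.05 (18.5% of all genes did, in either direction). Each of the 4 was higher, and the share of all genes higher at that threshold was not computed. The NAD-synthesis gene Nmnat3 measured 3.18 ± 0.500 and 4.79 ± 0.629 CPM (edgeR adjusted p = 0.0613), and Nnmt, which methylates nicotinamide, 68.2 ± 19.7 and 114 ± 17.4 CPM (edgeR adjusted p = 0.0696). DESeq2 called 3 of the 14 (6.68% of all genes), Nmnat3, Nnmt and Nampt, the last named here because of that call. With limma-voom 0 were called. For class IIa control, 1 of 8 had an unadjusted p under 0.05: Mef2d, a transcription factor that class IIa deacetylases bind, measured 32.4 ± 2.10 and 27.2 ± 1.61 CPM (adjusted p = 0.0918). In the P-TEFb list 1 of 5 did, the P-TEFb inhibitor Hexim1, at 25.1 ± 3.90 and 20.1 ± 3.96 CPM (adjusted p = 0.261). Of 9 other acetyltransferases 3 did, led by Gtf3c4 at 25.5 ± 1.5 and 30.2 ± 2.10 CPM (adjusted p = 0.0956), followed by the clock activator Clock at 39.4 ± 3.70 and 32.0 ± 4.00 CPM (adjusted p = 0.131).

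Across the alternatives the 3 members nearest to or past the threshold kept their direction. Brd2 ranged from -0.35 to -0.27, Hdac10 from 0.28 to 0.40 and Sirt7 from 0.23 to 0.30 on the log2 scale over 17 refits. Brd2 passed in 9 of these, and Hdac10 and Sirt7 in 1, that with DESeq2.

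**Figure D5:**
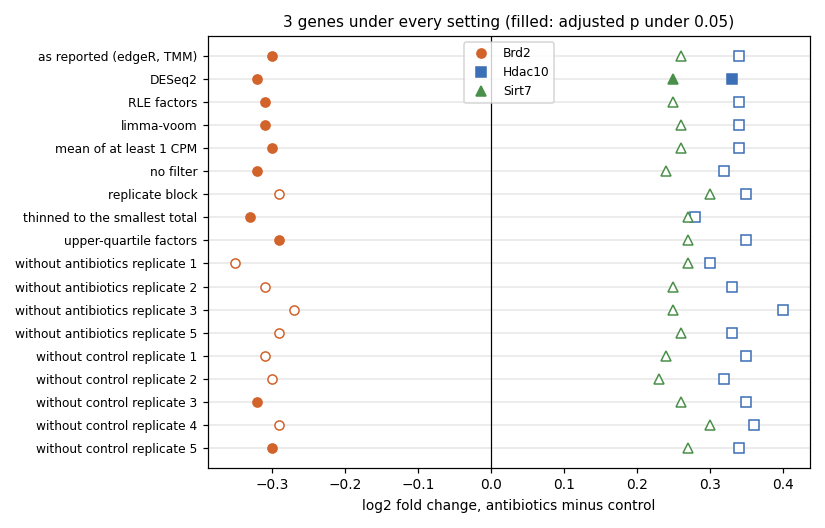
Log2 fold change (antibiotics minus control) of Brd2 (circles), Hdac10 (squares) and Sirt7 (triangles) as reported and under 17 refits, with filled symbols where the adjusted p was under 0.05. Brd2 stays between -0.35 and -0.27, while its symbols are open in most fits that leave out 1 library.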

How the data were processed

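RNA was sequenced from 9 mouse liver libraries, prepared with a stranded poly(A) kit per the labels' protocols. The authors deposited estimated counts per gene, and the submitters' processing notes name Salmon and GRCm38. The sources used here do not give its version, the annotation release or the use of strand. Values were whole numbers already. All 54393 identifiers matched GENCODE M21, which gave symbols, positions and exon lengths.

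Genes kept by filterByExpr (minimum count 10, total 15) numbered 14873. They were fitted in R 4.3.3 with edgeR 4.0.16 (TMM factors, quasi-likelihood F test, group only, Benjamini-Hochberg over all tested genes, called at an adjusted p under 0.05). SE is the log2 fold change divided by the square root of F. Levels are CPM on TMM-scaled libraries. Tested on simulated counts of this comparison (14873 genes), the fit recovered 38% of genes changed 1.5-fold and 80% of those changed 2-fold, with 4 false calls of 117. It recovered 10% of genes given the smallest change simulated, which is about the size of the Brd2 and Hdac10 differences. The changed genes were drawn at random from all tested genes, which had a lower median level and a larger median spread than the members. These rates are therefore not those of Brd2 or Hdac10. Alternatives were DESeq2 1.42.0, limma-voom (limma 3.58.1), other scalings, filters and thresholds, thinning, omission of each library in turn and a replicate block. Sums and ratios without Kat2b or Hdac11, sums under other scalings and the ratio with the longest transcript were added after seeing the data. Uncertain counts were marked from opposite-strand exon overlaps and from BLAST+ 2.17.0 matches (95% identity or more, 200 nt or longer). On the opposite strand, 12 members overlap a gene. A stretch of the longest transcript matches another gene's transcript, on a strand that was not recorded, in 6 (Brd2, Hdac1, Hdac11, Kat2b, Kat5 and Sirt5). For Brd2, Hdac11 and Kat5 the matched gene is also one that overlaps on the opposite strand. Either mark is held by 15 members. Overlaps on the same strand, such as that of Sirt7 with Mafg, are not in these counts.

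The members and lists were chosen with earlier results of these data known. All members could be named, and of each partner list those passing and the 2 with the smallest p. Replicate numbers did not pair the samples (correlations of same-numbered deviations from -0.056 to 0.103). No libraries were duplicates: within groups, counts differed by a chi-square of at least 20.2 for each degree of freedom. The labels do not say that libraries came from separate mice, and the p-values reflect only how much these libraries vary.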

Additional observations from a re-analysis of the deposited data

Results flagged for a closer look

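In 2 of 68 gene-by-group sets of values, 1 library lay far from the others, by the ratio of its gap to the whole range, and chance gives about 5 in 100. Kat7 measured 26.7 CPM in antibiotics library 1 and 24.1 to 24.5 in the other antibiotics libraries. Hdac1 measured 22.7 CPM in antibiotics library 3 and 19.1 to 19.4 in the others.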

How the results depend on the processing

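Of the 34 members' log2 fold changes under all alternatives, 598 of 610 values kept their side of the threshold, and none reversed while called. Most of these values belong to the 33 members that were not called, so this count says little about the call of Brd2. The sign changed under an alternative in 9 members. Brd2 lost its call in 8, the replicate block (adjusted p = 0.0959) and 7 omissions, and Hdac10 and Sirt7 gained one with DESeq2 and at an adjusted p under 0.10. With DESeq2, 976 genes and 3 members were called, and at an adjusted p under 0.10, 937 genes (6.30%) and 3 members. The replicate block, on numbers that do not pair the samples, gave 169 genes and 0 members (3 members at an unadjusted p under 0.05). Leaving out 1 library gave 36 (without antibiotics library 5) to 455 genes (without control library 5), 0 to 1 members and 0 to 3 partner genes (Mta3, Nmnat3 and Nnmt without control library 3, Atad2 without control library 5, Nampt without antibiotics library 2). Other counts were 53, 216 and 56 genes without antibiotics libraries 1, 2 and 3, and 171, 165 and 144 without control libraries 1, 2 and 4. Thinning to the smallest total moved the GNAT median to -0.12 and the class IIa median to 0.12, the latter with Hdac9 no longer tested. The other 185 of 187 class medians moved by less than 1 SD between libraries. Depth limits Hdac9 most. In the simulated counts 38% of genes changed 1.5-fold were recovered at this sample size. Those genes were drawn from all tested genes, so this rate is not that of the members.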
